A study of Mus musculus with 4 samples.

Results

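Matrix metalloproteinases (MMPs) and the related ADAMTS proteases were examined together with the ADAMTS-like proteins and the tissue inhibitors of metalloproteinases (TIMPs) in kidneys of vancomycin-injected mice. The genes were taken by name, as every array gene called Mmp, Adamts, Adamtsl or Timp with its number, which gave 51 of the 37074 gene names on the array, carried by 103 probes. They comprised 23 Mmp, 19 Adamts, 5 Adamtsl and 4 Timp genes. Of the 51, 36 had a signal well above background on 1 or more arrays, 30 of them on all 4, and the other 15 on 0 arrays.

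The study measured total RNA of kidney of ICR mice, an outbred stock, on Agilent Cy3 expression arrays. Vancomycin is a glycopeptide antibiotic whose known toxic effect is on the kidney, and saline was its control. The 4 groups were vancomycin injected at ZT14, saline injected at ZT14, vancomycin injected at ZT2 and saline injected at ZT2, where zeitgeber time (ZT) counts hours from lights on, with 1 array each and kidneys collected 1 day after injection. Dose, age and sex were not given in the sources used here, nor was the number of mice behind each sample, so no difference at a single time carries a test or an error between animals.

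MMPs and ADAMTS enzymes are zinc proteases that are made as inactive precursors, released or held at the cell surface, and that cut collagens, proteoglycans and other proteins of the extracellular matrix. TIMPs bind their active sites and block them, and the ADAMTS-like proteins share the ancillary domains of ADAMTS enzymes without a protease domain and sit in the microfibrils of the matrix. In kidney the enzymes are known from the remodelling of tubular basement membrane and interstitium after injury and from fibrosis.

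All values below are normalized signals, the background-corrected spot intensity of a probe after each array was scaled to the same 75th percentile, 401.4. Each gene was represented by its brightest probe, and levels were compared between arrays and not between genes. Where just 1 of the arrays compared had a signal clear of background, the dim array was set no lower than its lowest such signal, and the difference is a bound, written "at least". On the 4 arrays, 60.6% to 64.7% of spots were well above background, 0 spots were saturated, and the 10 kidney marker genes examined, among them uromodulin (Umod) and nephrin (Nphs1), were above background on every array. The ZT14 arrays shared a slide and the ZT2 arrays shared another, which means that an effect of time and of slide cannot be told apart. On each slide vancomycin took position 2 and saline position 1, and their effects cannot be told apart.

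Most of the measured genes had a lower signal with vancomycin than with saline. Among genes above background on both arrays compared, the median log2 difference of the metalloproteinase and inhibitor genes was -0.30 at ZT14 (32 genes) and -0.44 at ZT2 (31 genes), against 0.02 over all genes at both times. At ZT14, 2 of 34 genes were lower by 2-fold or more, Adamts14 and Mmp3, beside 2.84% of all genes, and 0 were higher by 2-fold, beside 1.63% of all genes. At ZT2, 6 of 35 were lower by 2-fold or more, Adamts2, Adamts12, Adamts14, Mmp3, Mmp17 and Timp4, or 17.1% beside 3.77% of all genes, and 0 were higher, beside 2.08%. Mmp3, in both counts, was above background on the saline arrays alone and could only be counted as lower. Among the 30 genes above background on all 4 arrays, 18 were lower with vancomycin at both times, beside 25.5% of all such genes, and 3 were higher at both, Adamts18, Mmp8 and Mmp15, beside 31.8%. Both vancomycin signals lay below both saline signals for 13 of the 30, or 43.3% beside 11.3% of all genes, and for 0 of the 30 did both lie above, beside 13.0%. Normexp was chosen as an alternative to the scanner's background correction, and an offset of 50 was added to each intensity. Such an offset makes log2 differences of dim probes smaller. With it, 0 genes were lower by 2-fold at ZT14 and 1, Adamts2, at ZT2. The count over all genes was 259 in place of 672 at ZT14 and 325 in place of 863 at ZT2. In a bulk tissue sample, fewer cells of a type and less RNA per cell cannot be told apart.

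**Figure D1:**
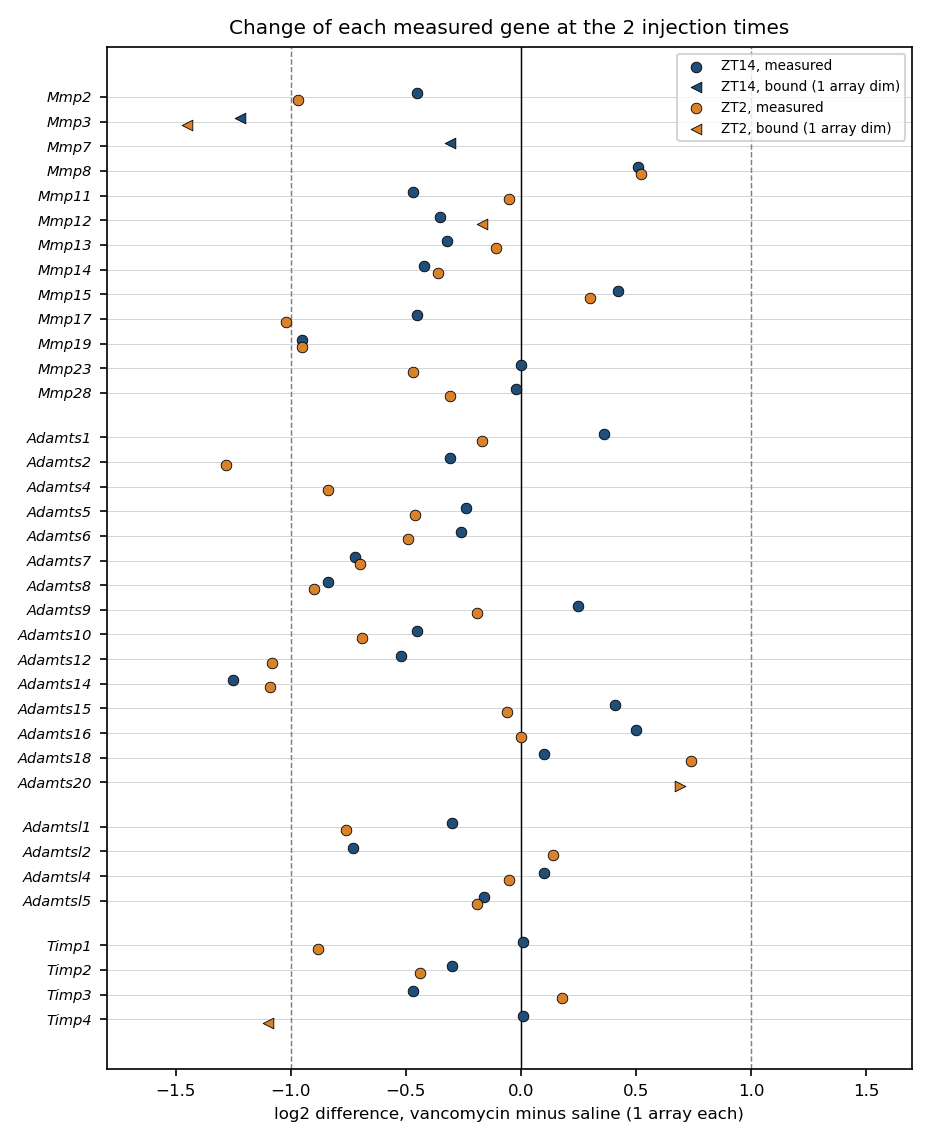
Log2 difference between vancomycin and saline at ZT14 (blue) and ZT2 (orange) for each of the 36 measured genes by family, with circles for values measured on both arrays, triangles for bounds and dashed lines at 2-fold. The 6 genes at or left of the lower line are Mmp3, Mmp17, Adamts2, Adamts12, Adamts14 and Timp4, and no gene reaches the upper line.

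A limma fit over the 4 arrays, with treatment and injection time as additive terms and a single residual degree of freedom, called 0 of the 36 genes at a Benjamini-Hochberg adjusted p under 0.05, and 0 of all 24640 genes (0.0%). At an unadjusted p under 0.05 it listed 12 of the 36, beside 8.47% of all genes. Of these, Adamts20 and Mmp8 were higher with vancomycin and the others were lower. The values for Adamts20, Adamts4 and Mmp3 rest in part on signals below background. The smallest adjusted p among the 36 was 0.53, for Adamts14. The spread in this fit is the difference between the 2 injection times and not a spread between animals. The differences below are therefore described by their size and by whether the arrays of the 2 treatments overlap.

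The procollagen N-propeptidases, which trim the amino-terminal propeptide from fibrillar procollagens so that fibrils can form, had the lowest median difference of the ADAMTS subgroups at both times, -0.78 at ZT14 and -1.19 at ZT2 over Adamts2 and Adamts14. Adamts3, the other enzyme of this activity, was not well above background on any array. Adamts14, whose probes lie at chr10:60659860-60660079 in mm9, had a signal of 109.6 with vancomycin and 259.9 with saline at ZT14, and of 87.9 with vancomycin and 187.3 with saline at ZT2. Both vancomycin arrays were lower than both saline arrays, 2.37-fold at ZT14 and 2.13-fold at ZT2. Over both times the limma estimate was -1.17 ± 0.14 (log2, SE, 2 arrays per treatment; unadjusted p = 0.0046, adjusted p = 0.53). A second Adamts14 probe gave -1.23 at ZT14 and -0.91 at ZT2. Adamts14 was the single gene of the 30 above background on all arrays that was lower by 2-fold or more at both times, beside 0.828% of all such genes. None was higher by 2-fold at both times (0 of 30), beside 0.188% of all such genes.

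Adamts2, the main procollagen I N-propeptidase, had a signal of 436.1 with vancomycin and 540.1 with saline at ZT14, and of 294.0 with vancomycin and 715.4 with saline at ZT2. The treatments did not overlap, but the gap was 2.43-fold at ZT2 and -0.31 on the log2 scale at ZT14. The promoter stretches of the 2 genes are shown because both genes were lower with vancomycin at both times and because both hold several GC boxes. They are the 120 bases before the RefSeq gene start in GRCm38.p6, written 5′ to 3′ on the gene's strand, with matches to GGGCGG on either strand in capitals.
Adamts14 (chr10:61273420-61273539, minus strand): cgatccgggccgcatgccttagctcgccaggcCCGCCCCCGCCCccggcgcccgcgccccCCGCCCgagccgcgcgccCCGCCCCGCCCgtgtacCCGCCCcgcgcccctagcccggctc
Adamts2 (chr11:50601965-50602084, plus strand): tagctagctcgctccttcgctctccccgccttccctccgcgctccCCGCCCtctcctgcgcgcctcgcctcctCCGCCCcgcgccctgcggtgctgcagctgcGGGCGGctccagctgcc
The Adamts14 stretch held 6 matches and the Adamts2 stretch 3, some of them overlapping. Within 250 bases before and 50 bases after the start, GGGCGG was found in 22 of the 39 promoters of the families, and in 35.7% of all 32851 promoters. The 39 belong to the 36 genes of the families that matched the RefSeq promoter table. A match describes the letters and not a bound site. No relation between the GC boxes and the differences is drawn, and the boxes were also found in Adamts18 and Mmp15, which were higher at both times.

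The ADAMTS enzymes that cut the proteoglycans aggrecan and versican differed in direction, with a median difference of 0.25 at ZT14 and -0.32 at ZT2. Adamts8, an enzyme of this kind that also inhibits blood vessel growth, had a signal of 1081 with vancomycin and 1935 with saline at ZT14, and of 1307 with vancomycin and 2431 with saline at ZT2. It was 1.79-fold lower at ZT14 and 1.86-fold lower at ZT2 without overlap, with a limma estimate of -0.87 ± 0.13 (unadjusted p = 0.0091). Adamts1, an enzyme with a known need in the formation of the kidney and urinary tract in mice, had a signal of 4095 with vancomycin and 3200 with saline at ZT14, and of 3669 with vancomycin and 4141 with saline at ZT2. Its difference was 0.36 at ZT14 and -0.17 at ZT2, so the treatments overlapped. Adamts9 and Adamts15, relatives with the same class of substrate, gave 0.25 and 0.41 at ZT14 and -0.19 and -0.06 at ZT2, and the 4 Adamts9 probes shared these signs, at 0.17 to 0.77 at ZT14 and -0.24 to -0.13 at ZT2. Adamts5, the main aggrecanase of mouse cartilage, was lower at both times, at -0.24 and -0.46, and a second probe gave -1.42 and -0.96. Adamts20, known from melanoblast survival in mice, was above background only on the ZT2 vancomycin array, where it was at least 1.61-fold higher than in saline.

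Adamts4, an aggrecanase, was dim on both ZT14 arrays, with a signal of 2.62 with vancomycin and 8.55 with saline, and was above background at ZT2, with 40.8 with vancomycin and 73.0 with saline. At ZT2 it was thus 1.79-fold lower with vancomycin. It is taken up again below with the injection times.

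Adamts7 and Adamts12, a pair of enzymes that cut the cartilage protein COMP, were both lower with vancomycin at both times. Adamts7 had a signal of 85.6 with vancomycin and 141.0 with saline at ZT14, and of 89.8 with vancomycin and 146.4 with saline at ZT2, a difference of -0.72 and -0.70. Adamts12 had a signal of 17.2 with vancomycin and 24.6 with saline at ZT14, and of 16.1 with vancomycin and 34.1 with saline at ZT2, where it was 2.12-fold lower. The treatments did not overlap for either gene, and the Adamts12 signals were near the lowest levels above background (9.72 to 13.3 on the 4 arrays). Adamts10 and Adamts6, which bind or act on fibrillin microfibrils, gave -0.45 and -0.26 at ZT14 and -0.69 and -0.49 at ZT2, and a second Adamts10 probe gave 0.11 at ZT14. Adamts16, known from work in rats on blood pressure, gave 0.50 at ZT14 and 0.00 at ZT2, and Adamts18 gave 0.10 and 0.74. Adamts13, which cuts von Willebrand factor in plasma and is made mainly in liver, was not well above background on any array, with signals of 4.68 with vancomycin and 2.21 with saline at ZT14 and of 3.45 with vancomycin and 2.48 with saline at ZT2.

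**Figure D2:**
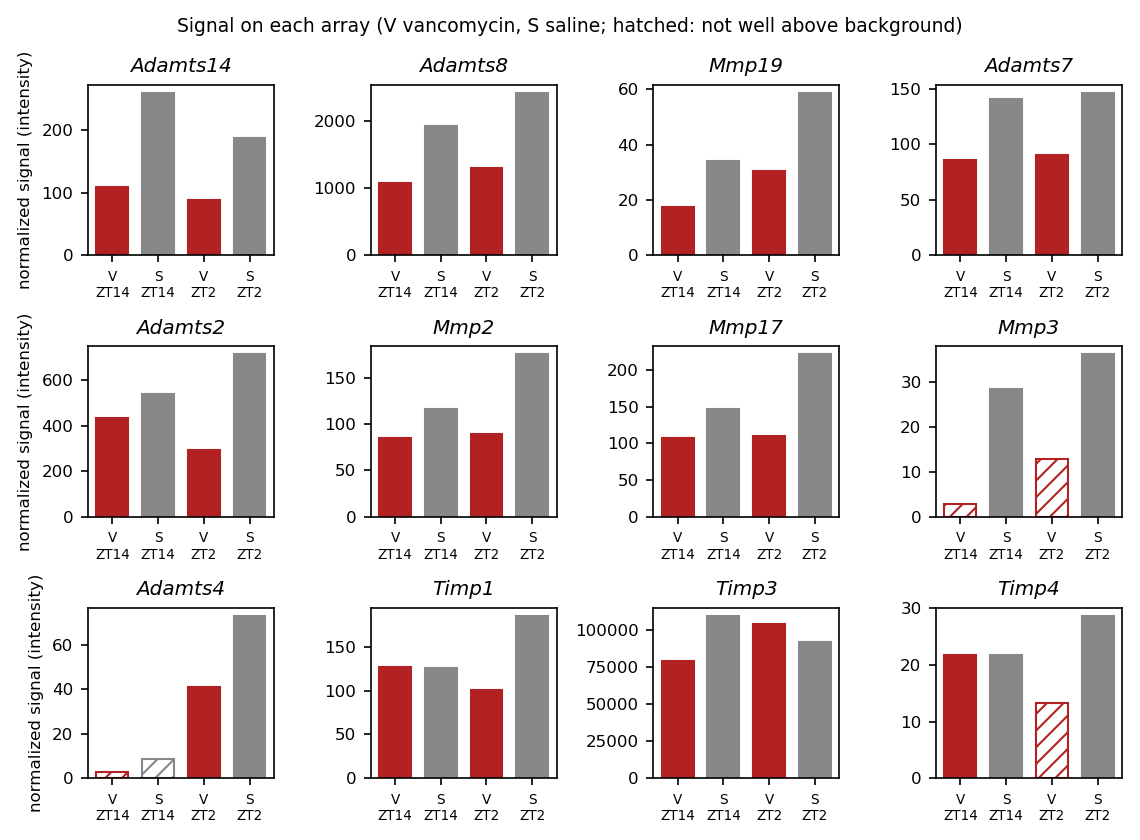
Normalized signal (linear scale from 0, a separate scale for each gene) of 12 genes, with 1 bar per array, vancomycin (red) left of saline (grey) at each injection time and hatched bars for signals not well above background. Adamts14, Adamts2, Adamts7, Adamts8, Mmp2, Mmp17 and Mmp19 are lower with vancomycin at both times, whereas the Timp3 arrays overlap between treatments.

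Among the MMPs, the median difference was -0.35 at ZT14 and -0.34 at ZT2. Mmp2, the gelatinase that cuts denatured collagen and basement membrane collagen IV, had a signal of 85.2 with vancomycin and 116.3 with saline at ZT14, and of 89.5 with vancomycin and 175.4 with saline at ZT2. It was lower by 0.45 on the log2 scale at ZT14 and 1.96-fold lower at ZT2, with no overlap. Mmp14, the membrane-type enzyme that activates the Mmp2 precursor together with Timp2, had a signal of 28.4 with vancomycin and 38.0 with saline at ZT14, and of 38.7 with vancomycin and 49.7 with saline at ZT2. Its differences were -0.42 and -0.36, and the ZT2 vancomycin array lay just above the ZT14 saline array. Mmp9, the other gelatinase, was not well above background on any array, at 8.53 with vancomycin and 4.95 with saline at ZT14 and 3.12 with vancomycin and 9.12 with saline at ZT2.

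Mmp17, a membrane-type enzyme held by a lipid anchor, had a signal of 106.6 with vancomycin and 146.0 with saline at ZT14, and of 109.4 with vancomycin and 221.3 with saline at ZT2, where it was 2.02-fold lower. Mmp15, a membrane-type enzyme of epithelia, was higher at both times, by 0.42 and 0.30. Mmp24, the membrane-type enzyme that cuts N-cadherin, was not well above background on any array, at 12.8 with vancomycin and 6.91 with saline at ZT14 and 4.94 with vancomycin and 5.40 with saline at ZT2. The Mmp17 arrays did not overlap between treatments. Mmp19, a secreted enzyme with basement membrane substrates, had a signal of 17.6 with vancomycin and 33.9 with saline at ZT14, and of 30.5 with vancomycin and 58.8 with saline at ZT2. It was 1.93-fold lower at both times without overlap, with a limma estimate of -0.95 ± 0.13 (unadjusted p = 0.0070). With normexp the Mmp19 difference was -0.25 at ZT14 and -0.30 at ZT2, whereas that of Adamts8, a gene with a bright probe, was -0.82 and -0.89. Mmp19 joined Adamts7, Adamts8 and Adamts14 as the 4 of 30 genes lower by 1.5-fold or more at both times, or 13.3% beside 2.23% of all genes.

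Of the remaining MMPs with a value at both times, Mmp11, known as stromelysin-3, gave -0.47 at ZT14 and -0.05 at ZT2. Mmp23, a membrane-anchored enzyme, gave 0.00 and -0.47, and Mmp28, known as epilysin, gave -0.02 and -0.31. All 3 thus had their larger difference at a single time.

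Several MMP genes lie side by side in a single cluster. The array held 10 Mmp genes of mouse chromosome 9 between 7282762 and 7699535 (mm9 probe positions), and 5 of them were above background on at least 1 array, Mmp3, Mmp7, Mmp8, Mmp12 and Mmp13. Promoter stretches of these 5 are shown because 4 of them hold an AP-1 site, TGANTCA, close to the start, and Mmp8 does not. They are the 120 bases before the RefSeq gene start in GRCm38.p6, 5′ to 3′ on the plus strand, with matches to TGANTCA and to the TATA box TATAAA in capitals.
Mmp3 (chr9:7445702-7445821, plus strand): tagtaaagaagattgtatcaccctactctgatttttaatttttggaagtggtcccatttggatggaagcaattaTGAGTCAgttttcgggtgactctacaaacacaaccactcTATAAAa
Mmp7 (chr9:7691970-7692089, plus strand): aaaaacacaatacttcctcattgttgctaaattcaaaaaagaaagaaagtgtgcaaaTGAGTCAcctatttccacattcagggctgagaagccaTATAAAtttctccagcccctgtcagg
Mmp12 (chr9:7347254-7347373, plus strand): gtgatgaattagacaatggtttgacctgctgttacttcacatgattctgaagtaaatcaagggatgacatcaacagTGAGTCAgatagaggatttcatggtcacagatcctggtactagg
Mmp13 (chr9:7272394-7272513, plus strand): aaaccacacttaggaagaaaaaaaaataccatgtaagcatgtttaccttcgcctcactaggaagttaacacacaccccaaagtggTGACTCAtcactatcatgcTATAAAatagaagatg
Mmp8 (chr9:7558309-7558428, plus strand): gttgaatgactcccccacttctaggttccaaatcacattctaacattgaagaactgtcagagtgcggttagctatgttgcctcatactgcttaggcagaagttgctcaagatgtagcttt
The AP-1 match began at position -46 in Mmp3, -63 in Mmp7, -44 in Mmp12 and -35 in Mmp13, counted from the gene start. In the window of 250 bases before to 50 after the start, on both strands, TGANTCA was found in 8 of the 39 promoters of the families. These 8 are all in this cluster, beside 7.81% of all promoters. TATAAA was found in 12 of the 39, and in 13.6% of all promoters. A sequence without a match says only that these letters are not in this window.

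No relation between these letters and the differences is drawn, since Mmp3 and Mmp7 were above background on saline arrays alone and could only be counted as lower. Mmp3, the stromelysin that also activates other MMP precursors, was dim on both vancomycin arrays, with a signal of 2.91 with vancomycin and 28.5 with saline at ZT14, and of 12.8 with vancomycin and 36.2 with saline at ZT2. It was at least 2.32-fold lower at ZT14 and at least 2.73-fold lower at ZT2. Mmp7, the matrilysin that is known to be induced in injured kidney tubule, had a signal of 11.5 with vancomycin and 15.1 with saline at ZT14, and of 3.32 with vancomycin and 7.85 with saline at ZT2. Only the ZT14 saline array was above background for it, which left a bound of at least 0.31 lower on the log2 scale at ZT14 and no value at ZT2. Mmp8, the neutrophil collagenase, had a signal of 16.3 with vancomycin and 11.5 with saline at ZT14, and of 27.2 with vancomycin and 18.9 with saline at ZT2, a difference of 0.51 and 0.52 in which the ZT14 vancomycin array lay below the ZT2 saline array. Mmp12, the macrophage elastase, gave -0.35 at ZT14 and was at least 0.17 lower on the log2 scale at ZT2. Mmp13, the main collagenase of rodents, gave -0.32 and -0.11. With normexp the differences of Mmp3, Mmp7, Mmp12 and Mmp13 at ZT14 were -0.32, -0.04, -0.05 and -0.08, and Mmp13 was at 0.08 at ZT2.

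The TIMPs were all measured, and they did not share a pattern. Timp1, the inducible inhibitor, had a signal of 126.8 with vancomycin and 126.2 with saline at ZT14, and of 101.2 with vancomycin and 185.6 with saline at ZT2. It differed by 0.01 on the log2 scale at ZT14 and was 1.83-fold lower with vancomycin at ZT2. Timp2, which inhibits and also helps to activate Mmp2, had a signal of 6285 with vancomycin and 7754 with saline at ZT14, and of 5851 with vancomycin and 7965 with saline at ZT2. The treatments did not overlap for Timp2, at -0.30 and -0.44, but a second probe gave 0.01 at ZT14 and -0.55 at ZT2.

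Timp3, the inhibitor bound to the matrix, which also blocks ADAM17 and several ADAMTS enzymes, had a signal of 79400 with vancomycin and 110000 with saline at ZT14, and of 104400 with vancomycin and 91980 with saline at ZT2. It was lower by 0.47 at ZT14 and higher by 0.18 at ZT2 with vancomycin, so the treatments overlapped. A second probe gave -0.33 and 0.23, and the dimmest of its probes gave 0.44 and 0.73. Timp4, an inhibitor with a narrow tissue range, had a signal of 21.8 with vancomycin and 21.7 with saline at ZT14, and of 13.3 with vancomycin and 28.7 with saline at ZT2, where the vancomycin array was not well above background. Timp4 was thus at least 2.15-fold lower at ZT2 and differed by 0.01 at ZT14, and a second probe gave 0.36 at ZT14 and -1.87 at ZT2.

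Of the ADAMTS-like genes, 4 of 5 were measured. Adamtsl2, a microfibril protein whose loss in humans causes geleophysic dysplasia, gave -0.73 at ZT14 and 0.14 at ZT2. Adamtsl1 gave -0.30 and -0.76, with other probes at 0.36 and 0.85 at ZT14 and -1.04 at ZT2. Adamtsl4, which in humans and mice is needed for the zonular fibres of the lens, gave 0.10 and -0.05, and Adamtsl5 gave -0.16 and -0.19. Their median was -0.23 at ZT14 and -0.12 at ZT2.

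Across the 10 genes with more than 1 probe above background, probes of a gene had opposite signs in 5 of 18 gene and time pairs. These were Adamts10, Adamtsl1, Adamtsl4, Timp2 and Timp3, all of them at ZT14, and 0 of the 9 pairs at ZT2. The 15 genes below background were Mmp1a, Mmp1b, Mmp9, Mmp10, Mmp16, Mmp20, Mmp21, Mmp24, Mmp25, Mmp27, Adamts3, Adamts13, Adamts17, Adamts19 and Adamtsl3.

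The differences at the 2 injection times ran together over the 30 genes above background on all arrays, with Pearson's r of 0.60 and Spearman's rho of 0.54, against 0.27 and 0.22 over all genes. These are descriptions across genes, which are not independent replicates, and the points of a time share a pair of arrays. The gap between the times was widest for Adamts2, at -0.31 at ZT14 and -1.28 at ZT2, among the genes lower by 2-fold at ZT2 and measured on all arrays. Timp1 had almost no difference at ZT14 and -0.88 at ZT2. With 1 array per group, the difference between the times could not be tested.

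**Figure D3:**
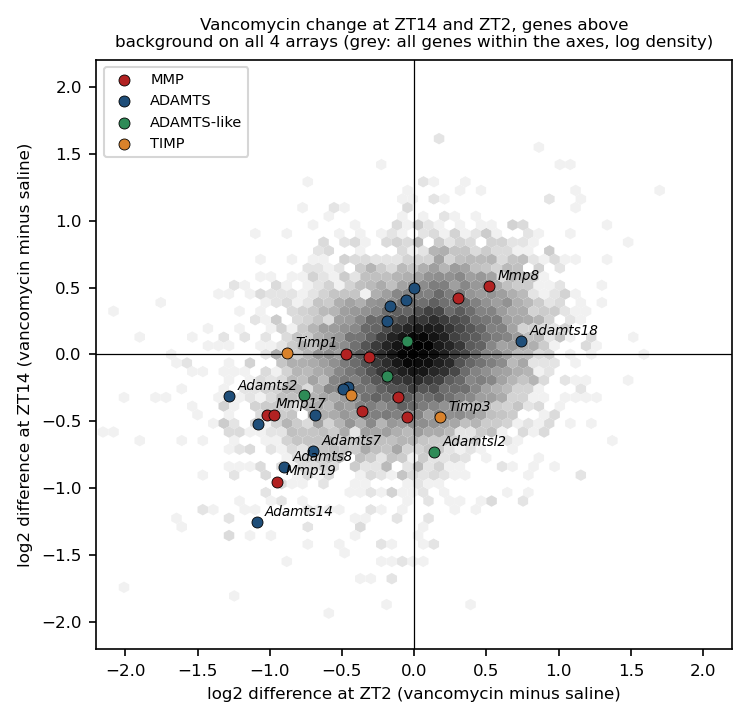
Log2 difference between vancomycin and saline at ZT14 (vertical) and ZT2 (horizontal) for the 30 genes above background on all 4 arrays, coloured by family, over the log density of all such genes that fall within the axes (grey). Adamts14, Mmp19, Adamts8 and Adamts7 lie in the lower left, and Timp3 and Adamtsl2 lie to the lower right.

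The same comparison was made for genes that act around these proteases. ADAM proteases, relatives that mainly shed proteins from the cell surface, had 11 of 13 genes measured and medians of -0.05 at ZT14 and 0.02 at ZT2, and Adam22 alone passed 2-fold, at -1.02 at ZT14 and 1.29 at ZT2. Astacin proteases and their enhancers, which include the meprins of the proximal tubule brush border, had 7 of 8 genes measured, medians of 0.08 and -0.04, and 0 past 2-fold at either time. Of the activators and clearance factors of metalloproteinases, 21 of 23 were measured, with medians of -0.15 and -0.03. A2m, a plasma inhibitor that traps proteases, was the single gene lower by 2-fold at ZT14, at -1.37, and the urokinase receptor Plaur (-1.51) and the hyaluronan receptor Cd44 (-1.44) were the 2 lower at ZT2.

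The substrates of these enzymes were measured for 23 of 25 genes, with medians of -0.21 at ZT14 and -0.50 at ZT2. This list overlaps others, since Col1a1, Col1a2, Col3a1 and Dcn are also fibroblast and mural markers below. Fbn1 and Fbn2 are also among the relatives of the ADAMTS-like proteins. At ZT14, 0 were lower by 2-fold, and at ZT2 there were 6, the fibrillar collagens Col1a1 (-1.81), Col1a2 (-1.21), Col2a1 (-1.71) and Col3a1 (-1.33), elastin (Eln, -1.77) and fibrillin-1 (Fbn1, -1.31). All 14 relatives of the ADAMTS-like proteins in microfibrils and elastic fibres were measured, with medians of -0.14 at ZT14 and -0.71 at ZT2. Of these, 3 were lower by 2-fold at ZT14 and 5 at ZT2. Ltbp2 (-1.16 and -1.44), the microfibril protein Mfap5 (-1.48 and -1.97) and the elastin crosslinking enzyme Loxl1 (-1.44 and -1.09) were lower by 2-fold at both times, and Papln and Fbn1 at ZT2 only.

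Markers of other cell types differed between treatments as well. The 10 fibroblast and mural cell markers, all above background on every array, had a median difference of -0.33 at ZT14 and -1.30 at ZT2, with 8 of 10 below 0 at ZT14 and 10 of 10 at ZT2. None was lower by 2-fold at ZT14 (0 of 10), and 7 were at ZT2, Col1a1, Col1a2, Col3a1, Lum, Acta2, Tagln and Myh11. Their summed signal was 31370 with vancomycin and 37560 with saline at ZT14, and 24590 with vancomycin and 62380 with saline at ZT2. Fat markers summed to 6294 with vancomycin and 5360 with saline at ZT14, and to 12070 with vancomycin and 24950 with saline at ZT2. At ZT2, 5 fat markers were lower by 2-fold with vancomycin, but the brown fat genes Ucp1 (206.1 with vancomycin and 12.6 with saline) and Cidea (600.1 with vancomycin and 197.8 with saline) were higher. The ZT2 saline kidney had the highest sum of both lists. It was also the array with the highest Adamts2, Adamts12, Mmp2, Mmp17, Mmp19 and Timp1. The same array was highest for Adamts1, Adamts4, Adamts5, Adamts7, Adamts8 and Adamtsl1, and for Mmp3, Mmp14, Mmp23, Mmp28, Timp2 and Timp4. Adamts16 was highest there by a small margin, 37.64 beside 37.63 with vancomycin at ZT2. The rest of the measured genes were highest on another array, among them Adamts14, with 259.9 on the ZT14 saline array and 187.3 on the ZT2 saline array. The share of all genes highest on the ZT2 saline array was not counted. The part of fat, fibroblast and mural markers in these differences was not tested.

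The other marker lists were smaller in range or ran differently. Endothelial markers (8 of 8 measured) had medians of -0.29 and -0.33, and their summed signal was 10640 with vancomycin and 13510 with saline at ZT14 and 8563 with vancomycin and 10610 with saline at ZT2. Macrophage markers (8 of 8) had medians of -0.52 and -0.45, with sums of 25790 with vancomycin and 26720 with saline at ZT14 and 21030 with vancomycin and 20630 with saline at ZT2. Neutrophil markers (6 of 8, without Ngp and Cxcr2) had medians of -0.26 and -0.59, with 5 of 6 below 0 at each time. Their sums were 1331 with vancomycin and 2310 with saline at ZT14, and 886.1 with vancomycin and 1109 with saline at ZT2. The neutrophil collagenase Mmp8 was higher with vancomycin at both times, but its signals were near the lowest levels above background. With normexp its differences were 0.22 at ZT14 and 0.29 at ZT2. Adrenal markers (8 of 10, without Cyp11b2 and Mc2r) summed to 877 with vancomycin and 538.7 with saline at ZT14, and to 3906 with vancomycin and 466.7 with saline at ZT2. Erythroid markers (4 of 7) summed to 25030 with vancomycin and 20110 with saline at ZT14, and to 6543 with vancomycin and 19640 with saline at ZT2. The 10 kidney markers had medians of 0.08 and 0.16. The part of these lists in the differences above was not tested.

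**Figure D4:**
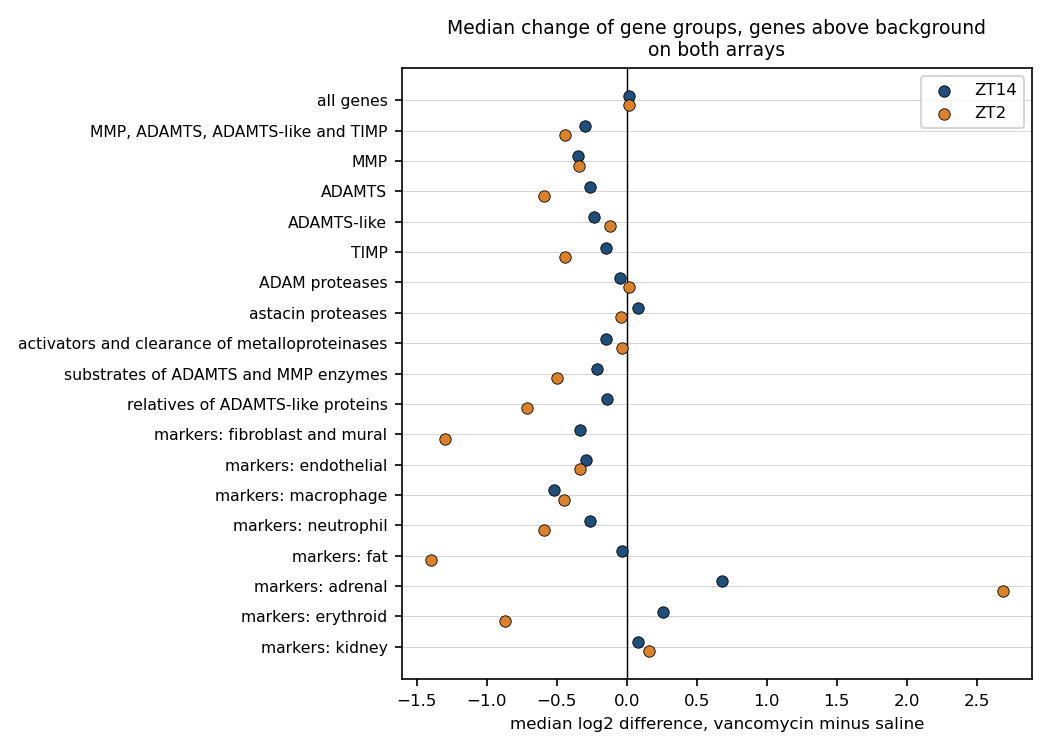
Median log2 difference between vancomycin and saline at ZT14 (blue) and ZT2 (orange) for the metalloproteinase and inhibitor families, related gene lists and cell type markers, over the genes of each that were above background on both arrays. The families lie left of all genes at both times, and fibroblast, mural and fat markers lie furthest left at ZT2. The substrate list shares genes with the fibroblast and mural markers and with the relatives of ADAMTS-like proteins.

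Between injection times the families differed little by the 2-fold rule. In vancomycin kidneys, 1 of 34 genes was lower by 2-fold or more at ZT14 than at ZT2 and 0 were higher, beside 3.33% and 9.33% of all genes. In saline kidneys, 1 of 35 was lower and 0 were higher, beside 3.44% and 8.48% of all genes. The gene was Adamts4 in both, at least 3.34-fold lower at ZT14 than at ZT2 with vancomycin and at least 7.51-fold lower with saline. The arrays of the 2 times did not overlap, with both ZT14 signals below background. Between the same arrays, fat markers had a median of -3.34 with vancomycin (5 of 6 genes below 0) and -3.27 with saline (4 of 5 below 0). Adrenal markers had medians of -2.25 with vancomycin and 0.13 with saline, and fibroblast and mural markers 0.21 and -0.75. Kidney markers had 0.06 and 0.10. The part of such tissue in the Adamts4 difference was not tested. The limma fit gave an adjusted p of 0.09 for Adamts4, with 0 of the 36 genes called and 0.0% of all genes, and its estimate of -3.53 ± 0.29 rests on signals below background and is no bound. At an unadjusted p under 0.05 it listed 11 of the 36, beside 27.1% of all genes. Adamts4 passed the adjusted threshold with a pseudocount of 16 (adjusted p = 0.029) and with normexp background correction (adjusted p = 0.012), settings that called 1353 and 3023 genes in all, and it was counted through the ZT2 arrays alone.

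Other genes with a like difference in both treatments had smaller values than Adamts4, and some are given here. Mmp13 was higher at ZT14 than at ZT2 by 0.75 with vancomycin and by 0.96 with saline, and Adamtsl5 by 0.87 and 0.85. Mmp12 was higher by at least 0.79 with vancomycin and by 0.97 with saline. Mmp8 gave -0.74 and -0.72, and Mmp19 gave -0.79 in both. Mmp15 gave -0.65 with vancomycin and -0.77 with saline, and Adamts10 gave 0.79 and 0.55. With normexp these were smaller, at -0.02 with vancomycin and 0.14 with saline for Mmp13, 0.28 and 0.32 for Adamtsl5, -0.45 and -0.37 for Mmp8, -0.43 and -0.48 for Mmp19, and 0.07 with saline for Mmp12. For Mmp15 they were -0.42 with vancomycin and -0.37 with saline, and for Adamts10 0.22 and 0.23. The medians of the families were 0.12 with vancomycin and -0.14 with saline, beside 0.02 and 0.03 over all genes, but with each array centred on its median the vancomycin value was -0.02 beside -0.11 over all genes. The 2 comparisons of the injection times use the arrays of the treatment comparisons, and time cannot be told apart from slide.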

How the data were processed

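Total RNA of 4 ICR mouse kidney samples was labelled with Cy3 and hybridized to Agilent mouse arrays. The deposited scanner files hold a processed signal for each spot, an intensity with background subtracted and no normalization between arrays, per the file headers, and mean and background intensities. Flags of other kinds (0 or 1), deposited in the same files, mark spots well above background, saturated or outlying. Feature Extraction was version 10.7.1.1 per the file headers and 9.5.1.1 per the submitters' processing notes. The authors' deposited table of intensities has a median of 35.2 in each column, a linear scale and ranks equal to the scanner signal (Spearman 1.0), and served as an alternative. The number of arrays, 1 per group, limits the precision.

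The log2 processed signal was scaled by the 75th percentile of its array, after outlier spots were dropped and the spots of a probe averaged. Probes with 50% or more of their spots clear of background on any array entered, and each gene was represented by the brightest of these. That left 24640 genes, 20761 of them above background on all 4 arrays. Probe positions are mm9, per the file headers, and the exon or UTR under a probe was not annotated here. Names are those of the array files.

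Differences at a single time have no test and a 2-fold size rule. limma 3.58.1 (R 4.3.3) fitted treatment and injection time, with Benjamini-Hochberg adjustment over all 24640 genes, and its script was tested on simulated data. Promoters came from RefSeq (GRCm38.p6), in which 36 of the 51 genes were matched. Alternatives were normexp with an offset of 50, quantile and median scaling, the authors' table and filters on dim probes. The mean over probes, a pseudocount of 16 and fits without a term were used as well. Signals array by array are given for genes past 2-fold between treatments or between times, all Timp genes, the 6 with the largest difference of one sign at both times, and Mmp2, Mmp7, Mmp9, Mmp14, Mmp24, Adamts1 and Adamts13. Genes of the related lists were named when past 2-fold, and cell type markers were mainly given as sums and counts. The genes, lists and markers were chosen with earlier results of these data known.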

Additional observations from a re-analysis of the deposited data

Results flagged for a closer look

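In 4 of the 30 genes above background on all arrays, the difference between vancomycin and saline had opposite signs at the 2 injection times by more than the technical spread. That spread, 0.066 on the log2 scale, comes from repeated spots of a probe within an array and covers no spread between animals. Opposite signs of any size were common over all genes above background on all arrays, of which 25.5% were lower and 31.8% higher at both times. The share of all genes past the technical spread was not counted. The difference between the times was not tested, since each group has 1 array. Adamts1, a proteoglycan-cleaving enzyme, was higher with vancomycin by 0.36 at ZT14 and lower by 0.17 at ZT2, a gap of 0.53 on the log2 scale. Adamts9, a close relative, had a signal of 606.9 with vancomycin and 509.9 with saline at ZT14, and of 428.9 with vancomycin and 488.6 with saline at ZT2, a gap of 0.44. Adamtsl2 went the other way, with 148.2 with vancomycin and 246.0 with saline at ZT14, and 206.1 with vancomycin and 187.1 with saline at ZT2, a gap of -0.87. Timp3 gave a gap of -0.65, and its dimmest probe did not share the sign at ZT14.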

How the results depend on the processing

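Of the single-gene differences past 2-fold, 0 changed sign in any setting tried. Of values between treatments, 221 of 269 at ZT14 and 221 of 275 at ZT2 stayed within the technical spread. Between times, 125 of 268 with vancomycin and 153 of 275 with saline did.

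Normexp left 0 genes lower by 2-fold at ZT14 and 1 at ZT2 (Adamts2), and the family medians moved to -0.08 and -0.15. It left 0 lower at ZT14 than at ZT2 with vancomycin and gave 1 limma call between times, of 3023 over all genes. The offset of 50 added to each intensity makes log2 differences of dim probes smaller, and its share in these changes was not tested. With a pseudocount of 16, 1 gene was lower at ZT14 and 2 at ZT2, 2 were lower between times with saline, and limma called 1 between times, of 1353 over all genes. With probes above background on all 4 arrays, 1 gene was lower at ZT14 and 0 between times with vancomycin, as fewer genes were tested. Without a filter on dim probes, 4 were lower and 1 higher at ZT14, 9 lower and 1 higher at ZT2, 3 lower and 4 higher between times with vancomycin, and 6 lower with saline, while the counts over all genes were 1694 lower and 1463 higher at ZT14 and 2023 lower and 2434 higher at ZT2. Quantile scaling and the mean over probes each gave 2 lower between times with saline. limma called 0 of the genes for vancomycin in every setting (smallest adjusted p 0.14 to 1.0).

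Adamts2 stayed past 2-fold at ZT2 in 9 of 9 settings, Adamts14 in 8 of 9 at ZT14 and 7 of 9 at ZT2, Mmp3 in 6 of 8 at both times, and Mmp17 in 5 of 9 at ZT2. Median scaling moved the median of all genes between times to -0.11 with vancomycin and -0.10 with saline, and the higher and lower calls over all genes to 1695 and 1147 with vancomycin and to 1594 and 1142 with saline. The limma fit with injection time as a term pairs the arrays of a time, and without that term its smallest adjusted p for vancomycin was 1.0. Leaving out an array leaves that fit no residual degrees of freedom. Arrays of single samples without replicates, slide shared with time, and signals close to background limit all values.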
